A study of Homo sapiens with 54 samples.

Results

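Epithelial to mesenchymal transition (EMT) genes were followed in MDA-MB-231 cells treated with Compound Kushen Injection (CKI) or with mixtures of its components. The set held 10 genes, chosen by name: the cadherins CDH1, CDH2 and CDH11, β-catenin (CTNNB1), the filament and matrix genes VIM and FN1, and the transcription factors SNAI1, SNAI2, ZEB1 and ZEB2. Each was 1 entry among the 27978 genes of the deposited count table, and all 10 had reads in all 54 libraries. MDA-MB-231 is a long-established human breast cancer cell line, so every value describes this 1 line in culture.

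The 54 RNA-seq libraries formed 18 groups with 3 replicates each. Batch1 held untreated cells (UT), CKI, N_2, N_3, OO and MOO, each at 24 and at 48 h. Batch2 held UT, CKI, N_Mac, N_Nme, N_Omt and N_Tri, all at 48 h. Treated cells received 2 mg/ml of CKI or a mixture made up to match that dose. CKI is a plant extract rich in alkaloids. N_2 was CKI from which oxymatrine (Omt) and oxysophocarpine (Ospc) had been taken out, and N_3 lacked macrozamin (Mac) as well. OO contained Omt and Ospc alone, and MOO contained Mac, Omt and Ospc alone. N_Mac, N_Nme, N_Omt and N_Tri were CKI without macrozamin, N-methylcytisine, oxymatrine or trifolirhizin. The labels state biological replicates but not which cultures they came from, so that p-values measure the spread between these libraries.

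In EMT, epithelial cells exchange E-cadherin (CDH1), the adhesion molecule of their junctions, for N-cadherin (CDH2) or cadherin 11 (CDH11), and gain the intermediate filament vimentin (VIM) and the matrix protein fibronectin (FN1). SNAI1, SNAI2, ZEB1 and ZEB2 are repressors that bind E-box sequences in the CDH1 promoter. β-catenin joins classical cadherins to the actin cytoskeleton through α-catenin and also carries Wnt signals to the nucleus, and much of its control is at the level of the protein, which RNA-seq does not measure. MDA-MB-231 is known as a basal, mesenchymal-like line with little E-cadherin.

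Levels are given as CPM, the count of a gene relative to the total of its library scaled by the TMM method over all libraries, and ± stands for the SD of 3 libraries. Library totals ran from 17673537 to 26138924 reads. A difference is a log2 fold change with its standard error (SE) from edgeR's quasi-likelihood test of 3 against 3 libraries, and DE genes are those with a p under 0.05 once corrected by Benjamini and Hochberg's method for the whole table of tested genes. "Changed", "rose" and "fell" are used for such calls. CPM are not divided by gene length, so levels are compared between groups and not between genes.

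The libraries carried genes that are high in basal breast lines, and some luminal genes too. VIM, CD44, AXL, MSN, CAV1 and EGFR summed to between 2058 and 4993 CPM. Of 8 luminal markers, which summed to 569 to 3477 CPM, the hormone receptor genes ESR1 and PGR reached at most 0.333 and 0.0922 CPM. The luminal keratins KRT8, KRT18 and KRT19 were present, KRT8 at 178 to 2026 CPM, as were ERBB2 (32.2 to 113 CPM) and GATA3 (5.18 to 45.6 CPM). Of 9 fibroblast markers, 5 had a mean under 1 CPM, and DCN reached at most 0.723 CPM. The sum of the list was 36.7 CPM at the median library, and its lowest value was in N_Nme (14.5 to 23.9 CPM). N_2 had 85.2 to 92.3 CPM at 48 h and 67.1 to 100 CPM at 24 h, with a median of 68.3 CPM at 24 h. Untreated Batch1 cells at 48 h had 73.4 to 76.1 CPM. Of 5 leukocyte markers, 4 had a mean under 1 CPM, and the sum of 0.786 to 29.5 CPM was almost all CD14.

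Libraries CKI replicate 1, N_3 replicate 2 and OO replicate 2, all of 24 h, stood apart from the other replicates of their groups. Their deviation followed the difference between untreated Batch2 and Batch1 cells over 762 genes with slopes of 0.573 to 0.674, and the slopes of the other 33 Batch1 libraries were between -0.390 and 0.0950. These libraries had the lowest CDH1 and CDH11 of their groups. In CDH1 they read 0.0899, 1.22 and 0.132 CPM, against at least 0.433, 3.27 and 1.68 CPM in the other replicates of CKI, N_3 and OO. Results at 24 h that rest on these 3 libraries are therefore given with and without them for many of the comparisons. In the deposited count table their columns are the ones without a replicate number, and that of N_3 was matched to its sample by elimination. N_2 replicate 3 of 24 h differed from its group as well. A χ² statistic per gene was 131 and 85.1 between it and replicates 2 and 1, and 11.2 between replicates 1 and 2. Its slope was -0.123, and it is not counted among the 3.

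Untreated cells of the 2 batches differed in most of these genes, and every ratio below was taken within a batch and time for that reason. At 48 h, 8 of the 10 genes differed between untreated Batch2 and Batch1 cells, where 58.8% of all genes did. CDH1 was at 6.58, 6.29 and 6.70 CPM in Batch1 and at 0.941, 0.977 and 0.873 CPM in Batch2, a log2 fold change of -2.85 (SE 0.16, edgeR adjusted p = 1.94e-08). SNAI1 was at 3.78, 4.19 and 4.01 CPM in Batch1 and at 0.941, 1.19 and 0.748 CPM in Batch2, a log2 fold change of -2.09 (SE 0.19, edgeR adjusted p = 1.27e-06). Untreated Batch2 cells at 48 h thus had less CDH1 transcript and less of the transcript of its repressor SNAI1. CDH11 was lower too, at 83.3 ± 15.2 against 176 ± 8.70 CPM, a log2 fold change of -1.12. SNAI2 differed by -0.19 on the log2 scale, a call lost without UT Batch1 replicate 2 or UT Batch2 replicate 1 or 3 (-0.18 to -0.17). VIM, ZEB1, ZEB2 and FN1 were higher in Batch2 by 0.27, 0.44, 0.50 and 0.40 on the log2 scale. CTNNB1, at 443 ± 26.4 and 425 ± 26.1 CPM, and CDH2 were not DE, with log2 fold changes of 0.02 (edgeR adjusted p = 0.811) and -0.74 (0.101). Fibroblast markers summed to 33.8 to 43.8 CPM in untreated Batch2 and to 73.4 to 76.1 CPM in untreated Batch1 cells at 48 h, and leukocyte markers to 4.70 to 6.16 and 16.2 to 20.3 CPM. Their part in the batch difference was not tested.

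**Figure D1:**
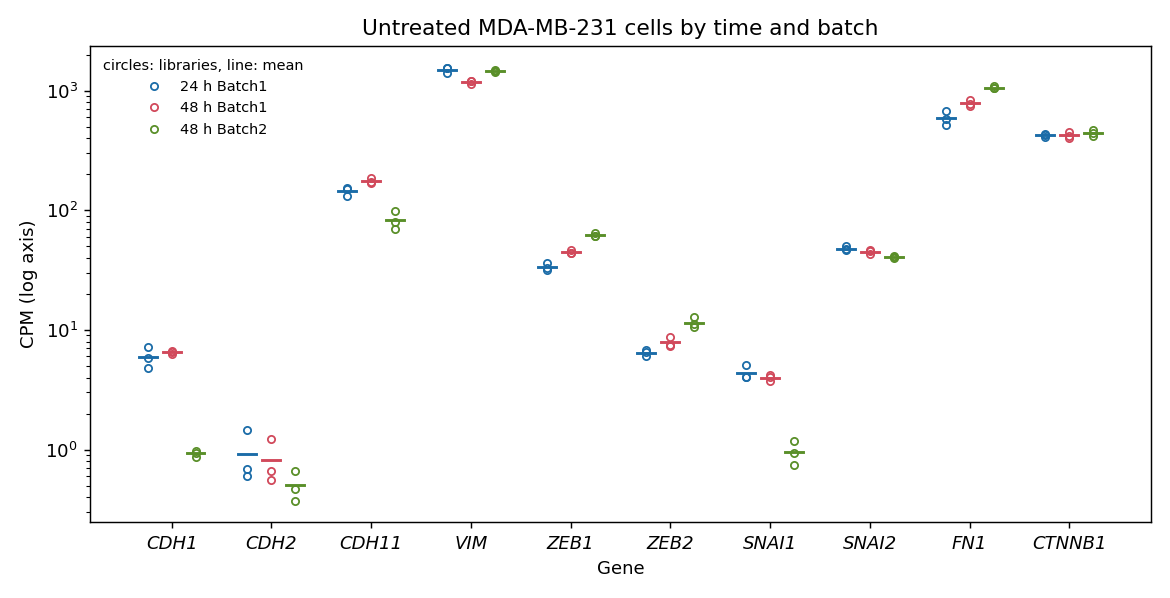
CPM (log axis) of the 10 genes in untreated cells. Circles are the 3 libraries of a time and batch, and lines are their means. CDH1 and SNAI1 of Batch2 lie below all untreated Batch1 libraries, while CTNNB1 overlaps in all 3 sets.

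Time alone changed 4 of the 10 genes in untreated Batch1 cells between 24 and 48 h, where 25.2% of all genes were DE. FN1 and ZEB1 each rose by 0.40 and CDH11 by 0.26 on the log2 scale, and VIM fell by 0.36 on the log2 scale. CDH11 lost its call without UT 24 h replicate 1 (log2 fold change 0.20, edgeR adjusted p = 0.0576). None of these 4 differences reached an absolute log2 fold change of 1, and the same 4 genes were called by DESeq2.

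CKI lowered most of the set at each time and in each batch. At 24 h it changed 6 of the 10 genes, where 38.7% of all genes were DE, and the median log2 fold change was -0.74 over the 10 genes and 0.01 over all genes. Without CKI replicate 1, which stood apart, the count at 24 h was 7, as ZEB1 (0.24) was called, and 53% of all genes were DE. At 48 h CKI changed 8 of 10 in Batch1 (62.5% of all genes) and 8 of 10 in Batch2 (68.4% of all genes), with medians of -0.59 and -0.99 over the 10 genes. CDH1, CDH11, VIM, SNAI2, FN1 and CTNNB1 fell in all 3 comparisons. SNAI1 rose at 48 h in both batches, where ZEB2 fell, and neither ZEB1 nor CDH2 was DE in any of the 3 with all libraries in. In these bulk samples, fewer cells with a transcript and less of it per cell cannot be told apart.

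The mixtures also changed several of the genes, in shares of the set that in some comparisons, such as N_3 at 24 h and N_Tri, were near those of all genes. At 24 h, 4 of the 10 were DE with N_2 (66.8% of all genes), 5 with N_3 (45.9%), 6 with OO (16.5%) and 7 with MOO (35.8%). At 48 h, 6 were DE with N_2 (80.4% of all genes), 9 with N_3 (64.7%), 9 with OO (67.8%) and 9 with MOO (60.5%). In Batch2 at 48 h, all 9 genes that could be tested were DE with N_Mac (72.6% of all genes), 8 of 10 with N_Nme (69.5%), 9 of 10 with N_Omt (79.6%) and 7 of 9 with N_Tri (74.3%). CDH2 had too few reads for a test with N_Mac and N_Tri. With OO at 24 h the count fell to 2, 1 or 2 without UT replicate 1, 2 or 3, and to 3 without OO replicate 3, and was 8 without OO replicate 1. With N_2 at 24 h it was 2 without UT replicate 3 and 7 without N_2 replicate 3. With N_3 at 24 h it was 3 without UT replicate 1 or 2. It was 8 without N_3 replicate 2, 1 of the 3 libraries that stood apart, where 68.3% of all genes were DE. Without OO replicate 2, another of the 3, the count with OO stayed at 6 (19.5% of all genes). For the other refits the share of all genes is not given here, so their counts do not show how the set stood beside all genes.

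**Figure D2:**
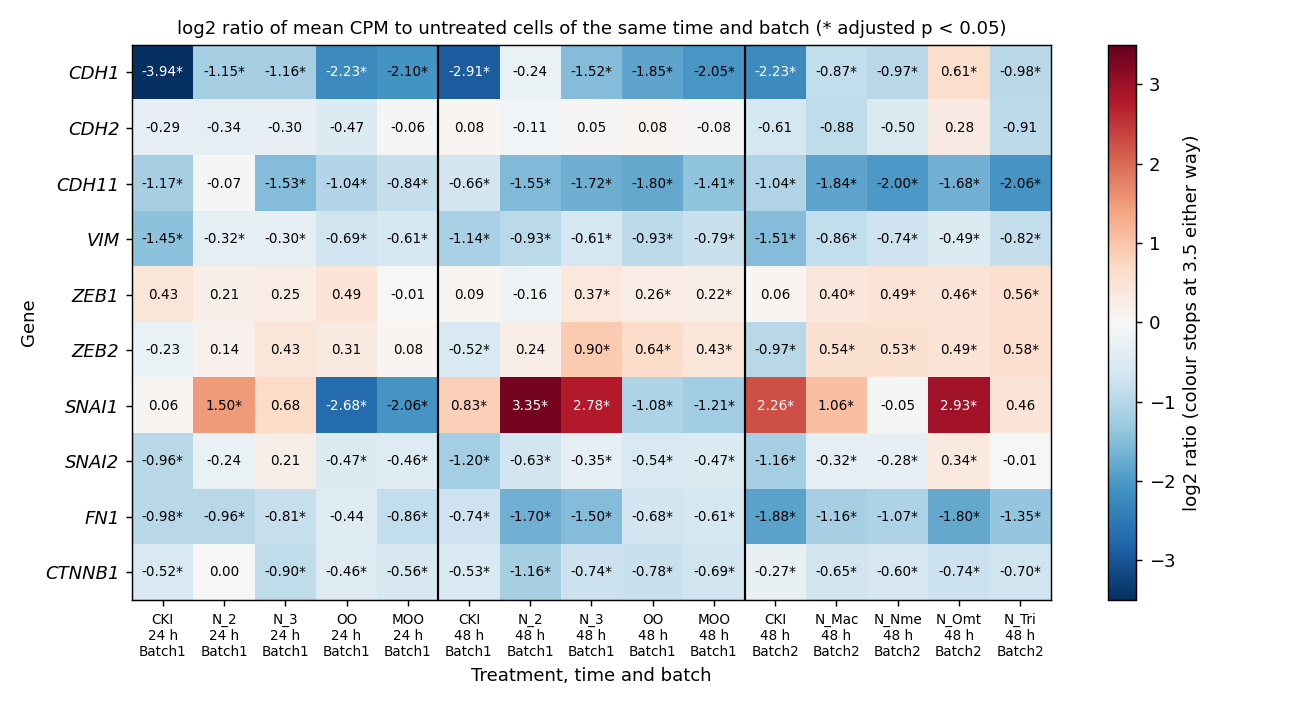
log2 ratio of mean CPM to untreated cells of the same time and batch for the 10 genes (rows) in the 15 treated groups (columns); red is higher, blue lower, and asterisks mark DE genes. The rows of VIM, FN1, CDH11 and CTNNB1 are blue almost throughout, and the SNAI1 row runs from -2.68 with OO at 24 h to 3.35 with N_2 at 48 h.

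VIM, which encodes vimentin, fell with every treatment, in 15 of 15 comparisons with untreated cells, and its 3 treated libraries lay below the 3 untreated ones each time. Untreated Batch1 cells had 1565, 1544 and 1403 CPM at 24 h, and CKI left 545, 530 and 583 CPM. The log2 fold change with CKI was -1.44 at 24 h (SE 0.09, edgeR adjusted p = 5.88e-05), -1.13 at 48 h in Batch1 (SE 0.05, edgeR adjusted p = 5.51e-12) and -1.49 in Batch2 (SE 0.04, edgeR adjusted p = 2.85e-11). CKI gave the lowest VIM mean of each time and batch, 552 ± 27.2, 535 ± 23.3 and 517 ± 26.4 CPM. The mixtures left more. N_2 and N_3 at 24 h had the smallest falls, with log2 fold changes of -0.31 (edgeR adjusted p = 0.0466) and -0.28 (0.0407). Both of these calls were near the threshold. That of N_2 was lost without UT replicate 1, 2 or 3 (edgeR adjusted p = 0.128, 0.140 and 0.0549) and without N_2 replicate 1 or 2 (0.0718 and 0.0807), while without N_2 replicate 3 it was kept at -0.20, and that of N_3 without UT replicate 1 or 2 (0.127 and 0.147) and without N_3 replicate 1 or 3 (0.0916 and 0.154). The fall with OO at 24 h, -0.69, was lost without any 1 of the 3 UT replicates (edgeR adjusted p = 0.0916, 0.0972 and 0.0578). At 48 h the VIM log2 fold changes of the mixtures were between -0.93 (N_2 and OO) and -0.48 (N_Omt), and leaving out any single library ended none of these calls.

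FN1, the gene of the matrix protein fibronectin, fell in 14 of 15 comparisons, and the 15th, OO at 24 h, missed the threshold (log2 fold change -0.44, edgeR adjusted p = 0.154). Untreated Batch2 cells had 1090, 1052 and 1049 CPM, CKI left 297, 287 and 285 CPM, and the log2 fold change was -1.86 (SE 0.04, edgeR adjusted p = 1.89e-12). In Batch1 at 48 h, untreated cells had 833, 783 and 740 CPM and CKI cells 441, 475 and 497 CPM, a log2 fold change of -0.73 (SE 0.06, edgeR adjusted p = 9.13e-09). At 24 h the log2 fold change with CKI was -0.98 (SE 0.12, edgeR adjusted p = 0.000938), and -0.93 without CKI replicate 1. Mixtures without oxymatrine and oxysophocarpine had the lowest FN1 of Batch1 at 48 h. N_2 left 229, 247 and 251 CPM and N_3 left 311, 322 and 198 CPM, log2 fold changes of -1.69 and -1.50, while OO and MOO gave -0.68 and -0.62. In Batch2, N_Omt left 308, 307 and 303 CPM (log2 fold change -1.79), and N_Mac, N_Nme and N_Tri gave -1.15, -1.08 and -1.35.

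CDH11, a cadherin of mesenchymal cells, fell in 14 of 15 comparisons. Untreated cells had 133, 151 and 154 CPM at 24 h and 186, 173 and 169 CPM at 48 h in Batch1. N_2 at 24 h, with 144, 156 and 118 CPM, overlapped untreated cells and was not DE (log2 fold change -0.05, edgeR adjusted p = 0.714). At 48 h all mixtures lowered CDH11 more than CKI did. CKI gave -0.65 (SE 0.06) in Batch1 and -1.03 (SE 0.10) in Batch2, and the mixtures gave -1.80 to -1.41 in Batch1 and -2.06 to -1.67 in Batch2. The lowest mean was 20.0 ± 0.394 CPM with N_Tri. CKI at 24 h read 25.7, 84.8 and 84.4 CPM, the first from the library that stood apart. Its log2 fold change was -1.17 (edgeR adjusted p = 0.0415) with that library and -0.79 (edgeR adjusted p = 8.03e-06) without it. The call was lost without UT replicate 1, 2 or 3 (log2 fold changes -1.24, -1.15 and -1.13, edgeR adjusted p = 0.0909, 0.109 and 0.106) and with DESeq2 (adjusted p = 0.0545). With OO at 24 h the log2 fold change was -1.04, and the call was lost without UT replicate 2 (-1.01, edgeR adjusted p = 0.0568).

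CTNNB1, the gene of β-catenin, fell in 14 of 15 comparisons. Untreated cells held 411 to 437 CPM at 24 h, 402 to 453 CPM at 48 h in Batch1 and 418 to 470 CPM in Batch2. CKI left 302, 300 and 283 CPM at 24 h, 307, 286 and 289 CPM at 48 h in Batch1 and 367, 371 and 362 CPM in Batch2. The log2 fold changes with CKI were -0.52 (SE 0.08, edgeR adjusted p = 0.00175), -0.52 (SE 0.06, edgeR adjusted p = 3.27e-07) and -0.26 (SE 0.05, edgeR adjusted p = 0.000248). The log2 fold changes of the mixtures at 48 h ran from -1.16 with N_2 (194, 186 and 190 CPM) to -0.61 with N_Nme. N_2 at 24 h was the exception among the 15 comparisons, at 469, 549 and 255 CPM. Its replicate 3 lay below and its other replicates above untreated cells, and without replicate 3 CTNNB1 was called higher (log2 fold change 0.30, edgeR adjusted p = 0.00254). In a fit of all 18 libraries of 24 h, CTNNB1 was not called with CKI, OO or MOO (edgeR adjusted p = 0.0601, 0.129 and 0.0876). That fit also lost the call of CDH11 with MOO (edgeR adjusted p = 0.112). It lost those of CDH1 (edgeR adjusted p = 0.0794 and 0.0846) and VIM (0.0559 and 0.0757) with N_2 and N_3. With OO at 24 h (-0.46, edgeR adjusted p = 0.0461) the call was lost without UT replicate 1, 2 or 3 (edgeR adjusted p = 0.144, 0.168 and 0.145) and without OO replicate 3 (0.133).

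**Figure D3:**
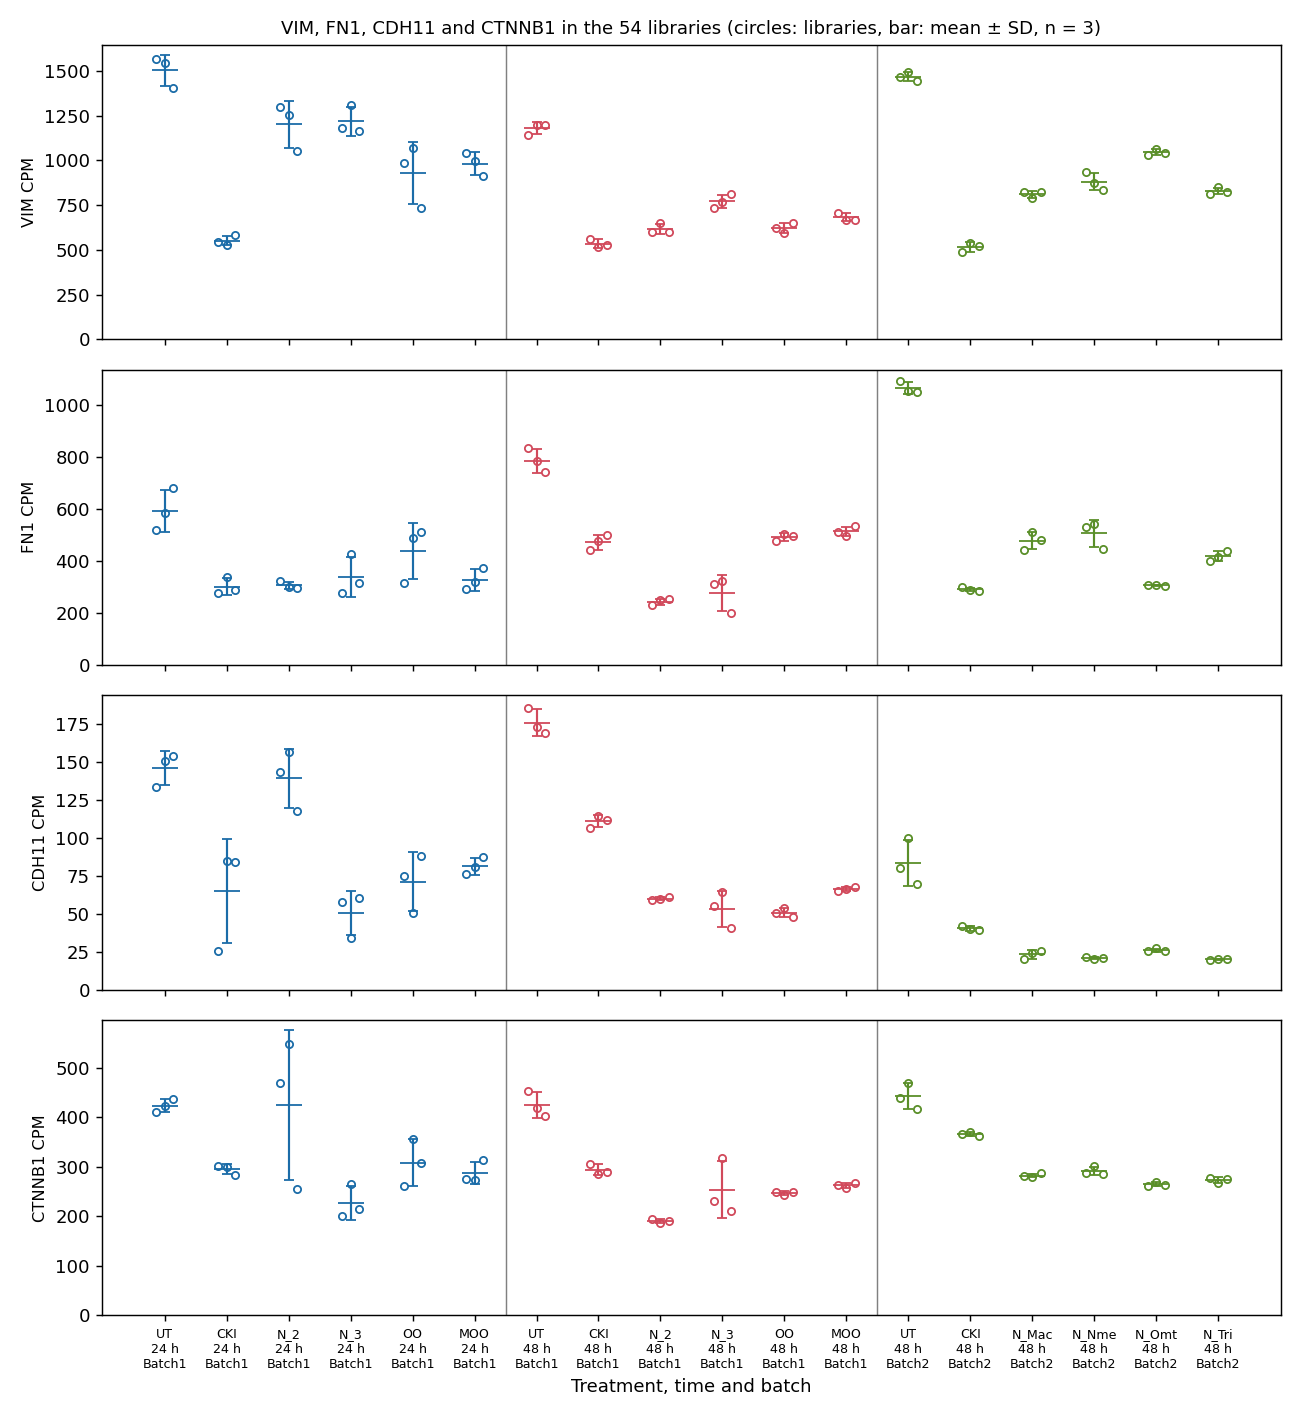
CPM of VIM, FN1, CDH11 and CTNNB1 in each of the 54 libraries (circles) with mean ± SD of 3 (bars), on linear axes that start at 0. The treated groups lie below untreated cells of the same time and batch in nearly every column; N_2 at 24 h overlaps untreated cells in CDH11 and CTNNB1.

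Promoter sequences of the genes that fell together are shown because the transcription factors of the set act through E-boxes, and the windows let a reader see where the letters occur. RefSeq windows of 250 bases before to 50 after each annotated start (GRCh38.p14) matched 6 of the 10 genes. CDH1, CDH11, SNAI1 and SNAI2 had no entry. The E-box searched was CAGGTG, on both strands (CACCTG), and 20.6% of all 35116 promoter windows held it. A cAMP response element, TGACGTCA, chosen after the FN1 sequence had been read, was in 1.85% of windows. Capitals mark either motif. FN1 is at chr2:215436019-215436318, minus strand, CTNNB1 at chr3:41199255-41199554, plus strand, and VIM at chr10:17227991-17228290, plus strand.
FN1: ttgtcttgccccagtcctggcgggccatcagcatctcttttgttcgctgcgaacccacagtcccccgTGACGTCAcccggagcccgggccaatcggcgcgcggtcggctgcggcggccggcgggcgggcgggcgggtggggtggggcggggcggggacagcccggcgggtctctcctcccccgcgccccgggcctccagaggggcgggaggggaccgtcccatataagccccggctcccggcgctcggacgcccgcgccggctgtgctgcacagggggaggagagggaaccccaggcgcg
CTNNB1: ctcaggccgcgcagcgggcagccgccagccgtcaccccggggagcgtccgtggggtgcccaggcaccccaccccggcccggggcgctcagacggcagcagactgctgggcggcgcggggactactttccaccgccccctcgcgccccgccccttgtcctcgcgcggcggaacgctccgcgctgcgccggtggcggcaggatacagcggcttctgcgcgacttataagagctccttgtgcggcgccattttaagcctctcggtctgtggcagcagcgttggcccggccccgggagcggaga
VIM: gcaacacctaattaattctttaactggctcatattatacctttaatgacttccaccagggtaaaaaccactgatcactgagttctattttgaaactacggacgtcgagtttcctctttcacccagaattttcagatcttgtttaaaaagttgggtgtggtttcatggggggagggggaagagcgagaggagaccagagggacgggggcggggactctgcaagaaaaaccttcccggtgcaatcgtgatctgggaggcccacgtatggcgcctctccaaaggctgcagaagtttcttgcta
The FN1 window held 1 cAMP response element, and none of the 3 windows held the E-box letters.

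CDH1, the gene of E-cadherin, fell in 13 of 15 comparisons although this line holds little of it. Its counts were 1 to 162 reads per library. In Batch1, CKI took it from 5.78, 4.80 and 7.19 CPM to 0.0899, 0.637 and 0.433 CPM at 24 h, and from 6.58, 6.29 and 6.70 CPM to 0.931, 0.801 and 0.875 CPM at 48 h. The log2 fold changes were -3.91 (SE 0.43, edgeR adjusted p = 0.00052) and -2.89 (SE 0.17, edgeR adjusted p = 8.76e-11), the largest falls of any of the 10 genes with CKI. The 24 h value became -4.54 with CKI replicate 2 left out, and with replicate 1 left out -3.42 (edgeR adjusted p = 3e-06). In Batch2, where untreated cells were already near 0.930 CPM, CKI left 1, 4 and 9 reads in its 3 libraries (0.0489, 0.168 and 0.379 CPM), a log2 fold change of -2.13 (SE 0.43, edgeR adjusted p = 0.000633) that became -2.97 when the CKI library with 9 reads was left out and -1.73 when that with 1 read was.

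In Batch1 the mixtures spread over the range of CDH1 levels between untreated cells and CKI. At 48 h in Batch1 the order of means was untreated (6.52 ± 0.213 CPM), N_2 (5.51 ± 0.471), N_3 (2.27 ± 0.263), OO (1.81 ± 0.372), MOO (1.58 ± 0.389) and CKI (0.869 ± 0.0648). N_2, at 6.04, 5.33 and 5.16 CPM, lay just below untreated cells and was not DE (log2 fold change -0.24, edgeR adjusted p = 0.0900), though it was called without N_2 replicate 1 (-0.30). N_3 and OO overlapped in their ranges, as did OO and MOO, while CKI lay below all others. At 24 h the order was untreated (4.80 to 7.19 CPM), N_2 (2.67 ± 1.04), N_3 (2.64 ± 1.24), MOO (1.38 ± 0.225), OO (1.27 ± 0.994) and CKI (0.387 ± 0.276), and N_2 and N_3 overlapped. Without the libraries that stood apart, the remaining N_3 libraries (3.27 and 3.44 CPM) averaged more than N_2, and those of OO (1.68 and 1.99 CPM) lay above all of MOO, so that both pairs of neighbours changed places. The call of N_3 at 24 h (-1.14, edgeR adjusted p = 0.0379) was lost without UT replicate 1, 2 or 3 (edgeR adjusted p = 0.0871, 0.0651 and 0.132), and was -0.80 (edgeR adjusted p = 0.00142) without N_3 replicate 2. That of OO (-2.22, edgeR adjusted p = 0.0335) was lost without UT replicate 1, 2 or 3 (edgeR adjusted p = 0.0998, 0.0954 and 0.107) and without OO replicate 3 (0.0692), and was -1.68 (edgeR adjusted p = 0.00454) without OO replicate 2.

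N_Omt was the 1 treatment with more CDH1 than untreated cells. Its libraries read 1.83, 1.42 and 1.01 CPM (43, 34 and 20 reads) against 0.941, 0.977 and 0.873 CPM (24, 23 and 21 reads), with no overlap, and the log2 fold change was 0.63 (SE 0.26, edgeR adjusted p = 0.0353). At these depths the call was fragile. It was lost without UT replicate 1 or 3 (edgeR adjusted p = 0.0808 and 0.0782) and without N_Omt replicate 1 or 2 (0.195 and 0.0746), with log2 fold changes of 0.41 to 0.64, and with DESeq2 (adjusted p = 0.0949). A fit of all 18 libraries of Batch2 lost it too (edgeR adjusted p = 0.0752). N_Mac (0.509 ± 0.303 CPM), N_Nme (0.474 ± 0.176 CPM) and N_Tri (0.471 ± 0.135 CPM) lowered CDH1, with log2 fold changes of -0.86 (N_Mac) and -0.94 (N_Tri). The call of N_Mac was lost without UT replicate 1 or 2 (edgeR adjusted p = 0.0949 and 0.0614) and without N_Mac replicate 1 or 3 (0.219 and 0.0708), where the log2 fold change was -0.45 without replicate 1. That of N_Nme was lost without its replicate 3 (-0.69, edgeR adjusted p = 0.0742). DESeq2 called neither N_Mac nor N_Tri (adjusted p = 0.0928 and 0.0540), and N_Mac was not called with library sizes alone either (edgeR adjusted p = 0.0654).

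SNAI1, the zinc finger repressor for which Snail is named, moved in both directions and over the widest range of the 10 genes, from 0.278 to 46.6 CPM. It rose in 7 and fell in 4 of the 15 comparisons. In Batch1 at 48 h, untreated cells had 3.78, 4.19 and 4.01 CPM and CKI cells 6.73, 7.65 and 6.92 CPM, a log2 fold change of 0.85 (SE 0.13, edgeR adjusted p = 1.37e-05). N_2 had 46.6, 37.2 and 38.6 CPM, and its log2 fold change was 3.36 (SE 0.11, edgeR adjusted p = 8.57e-18). N_3 had 34.6, 18.7 and 29.1 CPM, a log2 fold change of 2.79 (SE 0.22, edgeR adjusted p = 8.83e-07). OO, made of the compounds that N_2 lacked, had 2.46, 1.96 and 1.22 CPM, and MOO had 1.49, 1.43 and 2.28 CPM. Their log2 fold changes were -1.09 (SE 0.20, edgeR adjusted p = 7.69e-05) and -1.21 (SE 0.19, edgeR adjusted p = 4.19e-05). The ranges of N_2 and N_3, CKI, untreated cells, and OO and MOO followed each other in that order without overlap, and N_2 and N_3 had no value in common.

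The same split was present at 24 h, less evenly. OO (0.681, 1.10 and 0.278 CPM) and MOO (1.41, 1.25 and 0.504 CPM) lay below untreated cells (5.11, 4.03 and 4.06 CPM), with log2 fold changes of -2.68 and -2.06. N_2 lay above them at 10.4, 5.53 and 21.2 CPM, a log2 fold change of 1.53 (edgeR adjusted p = 0.0116) that missed the threshold without UT replicate 3 (1.46, edgeR adjusted p = 0.0508). Without N_2 replicate 3, the highest, it was 0.92 and still called. N_3 read 8.72, 1.94 and 10.5 CPM, the middle value from the library that stood apart. With it the log2 fold change was 0.71 (edgeR adjusted p = 0.301), and without it SNAI1 was higher by 1.16 on the log2 scale (edgeR adjusted p = 4.52e-06). CKI, at 7.02, 3.18 and 3.57 CPM, was not DE (0.07, edgeR adjusted p = 0.868) and was not called without replicate 1, the highest of the 3 (-0.38, edgeR adjusted p = 0.0966).

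In Batch2 SNAI1 was highest with N_Omt. Its libraries read 7.70, 7.17 and 7.07 CPM against 0.941, 1.19 and 0.748 CPM in untreated cells, a log2 fold change of 2.94 (SE 0.17, edgeR adjusted p = 3.7e-10). CKI followed with 4.94, 4.63 and 4.21 CPM (log2 fold change 2.27, SE 0.18, edgeR adjusted p = 2.25e-07) and N_Mac with 2.06, 2.06 and 1.87 CPM (1.06, SE 0.22, edgeR adjusted p = 0.000525). N_Tri (1.29, 1.53 and 1.14 CPM) and N_Nme (0.892, 0.555 and 1.33 CPM) overlapped untreated cells and were not DE, with log2 fold changes of 0.47 (95% interval -0.07 to 1.01) and -0.04 (95% interval -0.70 to 0.63). Each of the treatments that lacked oxymatrine had more SNAI1 than untreated cells at 48 h, N_2 and N_3, which also lacked oxysophocarpine, and N_Omt. CKI and N_Mac, which contained oxymatrine, had more SNAI1 than untreated cells too. N_2 with N_3 in Batch1 and N_Omt in Batch2 also had the most CDH1 among the treated groups of their batch.

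**Figure D4:**
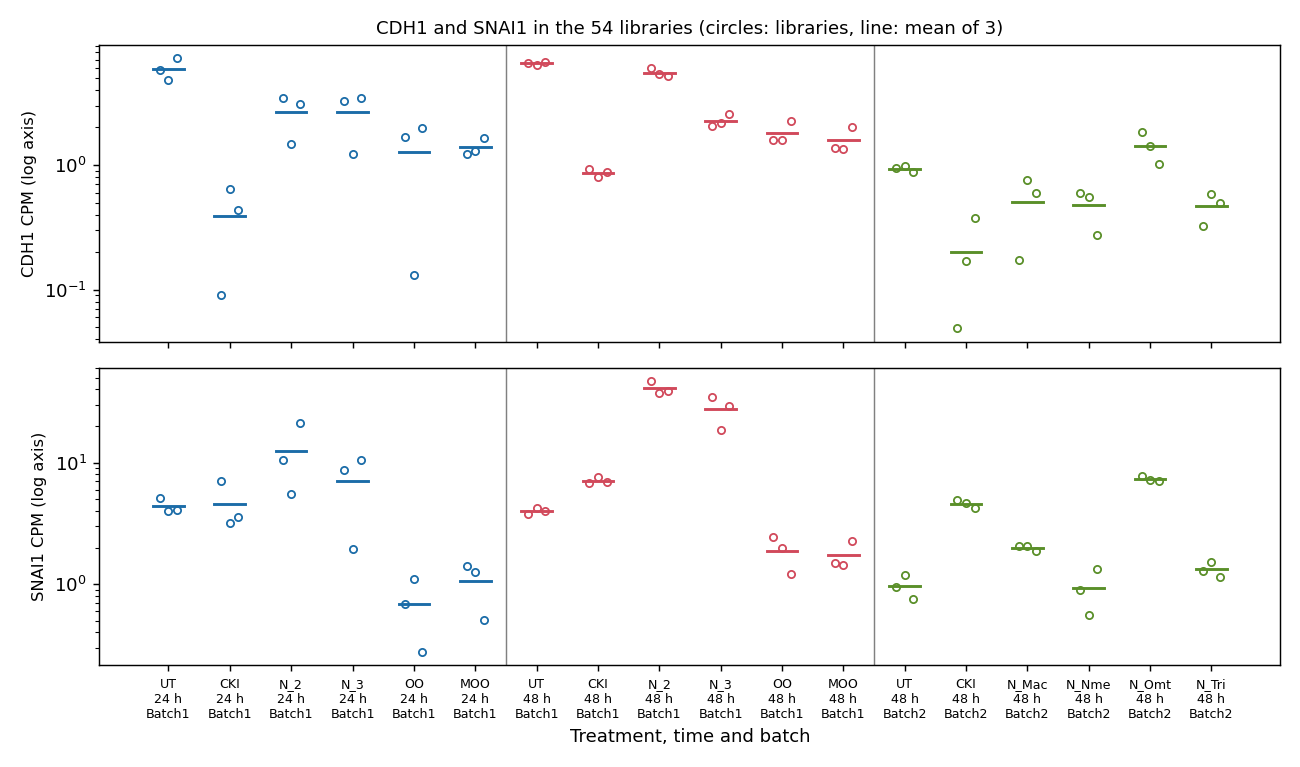
CPM of CDH1 and SNAI1 on log axes in each of the 54 libraries (circles), with lines at the mean of 3. The SNAI1 means of N_2 and N_3 at 48 h lie above those of all other groups, OO and MOO lie below untreated Batch1 cells, and CDH1 with CKI is the lowest group of each set.

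SNAI2, or Slug, the paralog of SNAI1, went mostly down. It fell in 11 of 15 comparisons and rose in 1. Untreated Batch1 cells at 48 h had 47.0, 45.4 and 43.0 CPM and CKI cells 18.8, 20.2 and 20.0 CPM, a log2 fold change of -1.19 (SE 0.07, edgeR adjusted p = 6.56e-11). In Batch2 it was -1.15 (SE 0.06, edgeR adjusted p = 6e-09) and at 24 h -0.96 (SE 0.15, edgeR adjusted p = 0.00215). The mixtures kept more SNAI2, with log2 fold changes of -0.63 to -0.34 in Batch1 at 48 h. The call of N_3 there (-0.34, edgeR adjusted p = 0.0229) was lost without UT replicate 1 or 2 (edgeR adjusted p = 0.0732 and 0.0647). N_Omt was the 1 treatment with a rise, at 50.1, 52.1 and 52.4 CPM against 39.9, 41.9 and 40.7 CPM (log2 fold change 0.34, SE 0.05, edgeR adjusted p = 2.39e-05). N_Tri overlapped untreated cells (-0.02, edgeR adjusted p = 0.791). With OO at 24 h (-0.46, edgeR adjusted p = 0.0356) the call was lost without UT replicate 1, 2 or 3 (edgeR adjusted p = 0.122, 0.136 and 0.132) and without OO replicate 3 (0.124). SNAI2 at 24 h was not DE with N_2 (-0.22) or N_3 (0.23). Without the libraries N_2 replicate 3 and N_3 replicate 2, respectively, each was called, at -0.24 (edgeR adjusted p = 0.0241) and 0.20 (0.0451).

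ZEB1 and ZEB2 encode zinc finger and homeodomain repressors of CDH1. With N_3, OO and MOO at 48 h and with all 4 mixtures of Batch2, both genes rose. In Batch2, ZEB1 was at 61.2, 60.6 and 64.8 CPM in untreated cells and highest with N_Tri at 93.8, 93.6 and 88.8 CPM, a log2 fold change of 0.56 (SE 0.04, edgeR adjusted p = 1.42e-07). ZEB2 was at 11.1, 10.5 and 12.7 CPM in untreated cells and between 15.2 and 17.9 CPM in the 12 libraries of the mixtures, with log2 fold changes of 0.49 to 0.58. In Batch1 at 48 h, ZEB2 rose most with N_3, from 8.69, 7.54 and 7.36 CPM to 15.5, 16.2 and 12.5 CPM, a log2 fold change of 0.91 (SE 0.14, edgeR adjusted p = 0.000153). N_2 was not DE for either gene, with log2 fold changes of -0.15 for ZEB1 (edgeR adjusted p = 0.0531) and 0.23 for ZEB2 (0.0952). Without N_2 replicate 1, ZEB1 was called lower (-0.21, edgeR adjusted p = 0.0153) and ZEB2 higher (0.31, edgeR adjusted p = 0.0379), and ZEB2 also without UT replicate 1 (0.31, edgeR adjusted p = 0.0493).

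CKI separated the pair. It lowered ZEB2 to 4.95, 5.54 and 5.97 CPM in Batch1 at 48 h (log2 fold change -0.51, SE 0.12, edgeR adjusted p = 0.00143) and to 5.23, 6.19 and 6.15 CPM in Batch2 (-0.95, SE 0.11, edgeR adjusted p = 5.53e-06). ZEB1 overlapped untreated cells, with log2 fold changes of 0.10 (95% interval -0.03 to 0.24) and 0.08 (95% interval -0.01 to 0.18). At 24 h neither gene was DE in any of the 5 comparisons with all libraries in. ZEB1 with CKI was near the threshold (0.43, edgeR adjusted p = 0.0596) and was called without CKI replicate 1 (0.24, edgeR adjusted p = 0.0296) or CKI replicate 3 (0.54, edgeR adjusted p = 0.0272). ZEB2 with N_3 was at 0.45 (edgeR adjusted p = 0.0501) and was called without N_3 replicate 1 (0.56, edgeR adjusted p = 0.0268) or replicate 2 (0.36, edgeR adjusted p = 0.0350). Without OO replicate 1 both genes were called higher with OO (0.70 and 0.51, edgeR adjusted p = 0.000734 and 0.0218), and without N_2 replicate 3 ZEB1 was called higher with N_2 (0.40, edgeR adjusted p = 0.000777). The antisense gene ZEB1-AS1 had up to 27.4% as many reads as ZEB1, and VIM-AS1 and ZEB2-AS1 at most 1.69% and 1.95% of their partners. The labels call the libraries strand-specific, and the strand setting of the counting is not given in the sources used here.

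ZEB1 and ZEB2 promoter windows are shown because both genes rose together with the mixtures at 48 h. ZEB1 had 7 windows, and that with the most E-boxes, at chr10:31318966-31319265 on the plus strand (GRCh38.p14), is printed. ZEB2 is at chr2:144520070-144520369 on the minus strand. Capitals mark the E-box letters CAGGTG or CACCTG.
ZEB1: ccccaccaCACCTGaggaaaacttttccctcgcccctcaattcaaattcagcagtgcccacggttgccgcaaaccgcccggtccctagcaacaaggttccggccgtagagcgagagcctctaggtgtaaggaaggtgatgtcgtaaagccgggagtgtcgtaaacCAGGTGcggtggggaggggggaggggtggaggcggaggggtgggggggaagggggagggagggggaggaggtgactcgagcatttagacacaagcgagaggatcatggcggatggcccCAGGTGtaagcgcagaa
ZEB2: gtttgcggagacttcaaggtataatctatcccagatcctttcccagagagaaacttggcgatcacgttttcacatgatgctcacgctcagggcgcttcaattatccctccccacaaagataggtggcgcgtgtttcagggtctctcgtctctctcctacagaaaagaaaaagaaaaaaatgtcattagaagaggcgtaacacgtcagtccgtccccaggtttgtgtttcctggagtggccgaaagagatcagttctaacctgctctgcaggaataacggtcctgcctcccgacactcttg
The printed ZEB1 window held 3 E-boxes, 1 of the other ZEB1 windows held 1, and the ZEB2 window held none.

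CDH2, the gene of N-cadherin, was near the limit of detection, at 3 to 33 reads and 0.126 to 1.46 CPM per library. It was called in none of the 13 comparisons with untreated cells in which it could be tested, and in none by DESeq2, and no unadjusted p was under 0.05. Its log2 fold changes lay between -0.62 and 0.24, with treated and untreated ranges overlapping in each of the 13. Between N_Omt and CKI the log2 fold change was 0.88 (edgeR adjusted p = 0.0569), and it was called without CKI replicate 1 or 3 (1.11 and 1.12, edgeR adjusted p = 0.0472 and 0.0496) or N_Omt replicate 1 (1.17, edgeR adjusted p = 0.0168). At this depth changes of the size seen against untreated cells were not detectable. With CKI at 48 h in Batch1, for example, the 95% interval of the log2 fold change was -0.62 to 0.78.

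**Figure D5:**
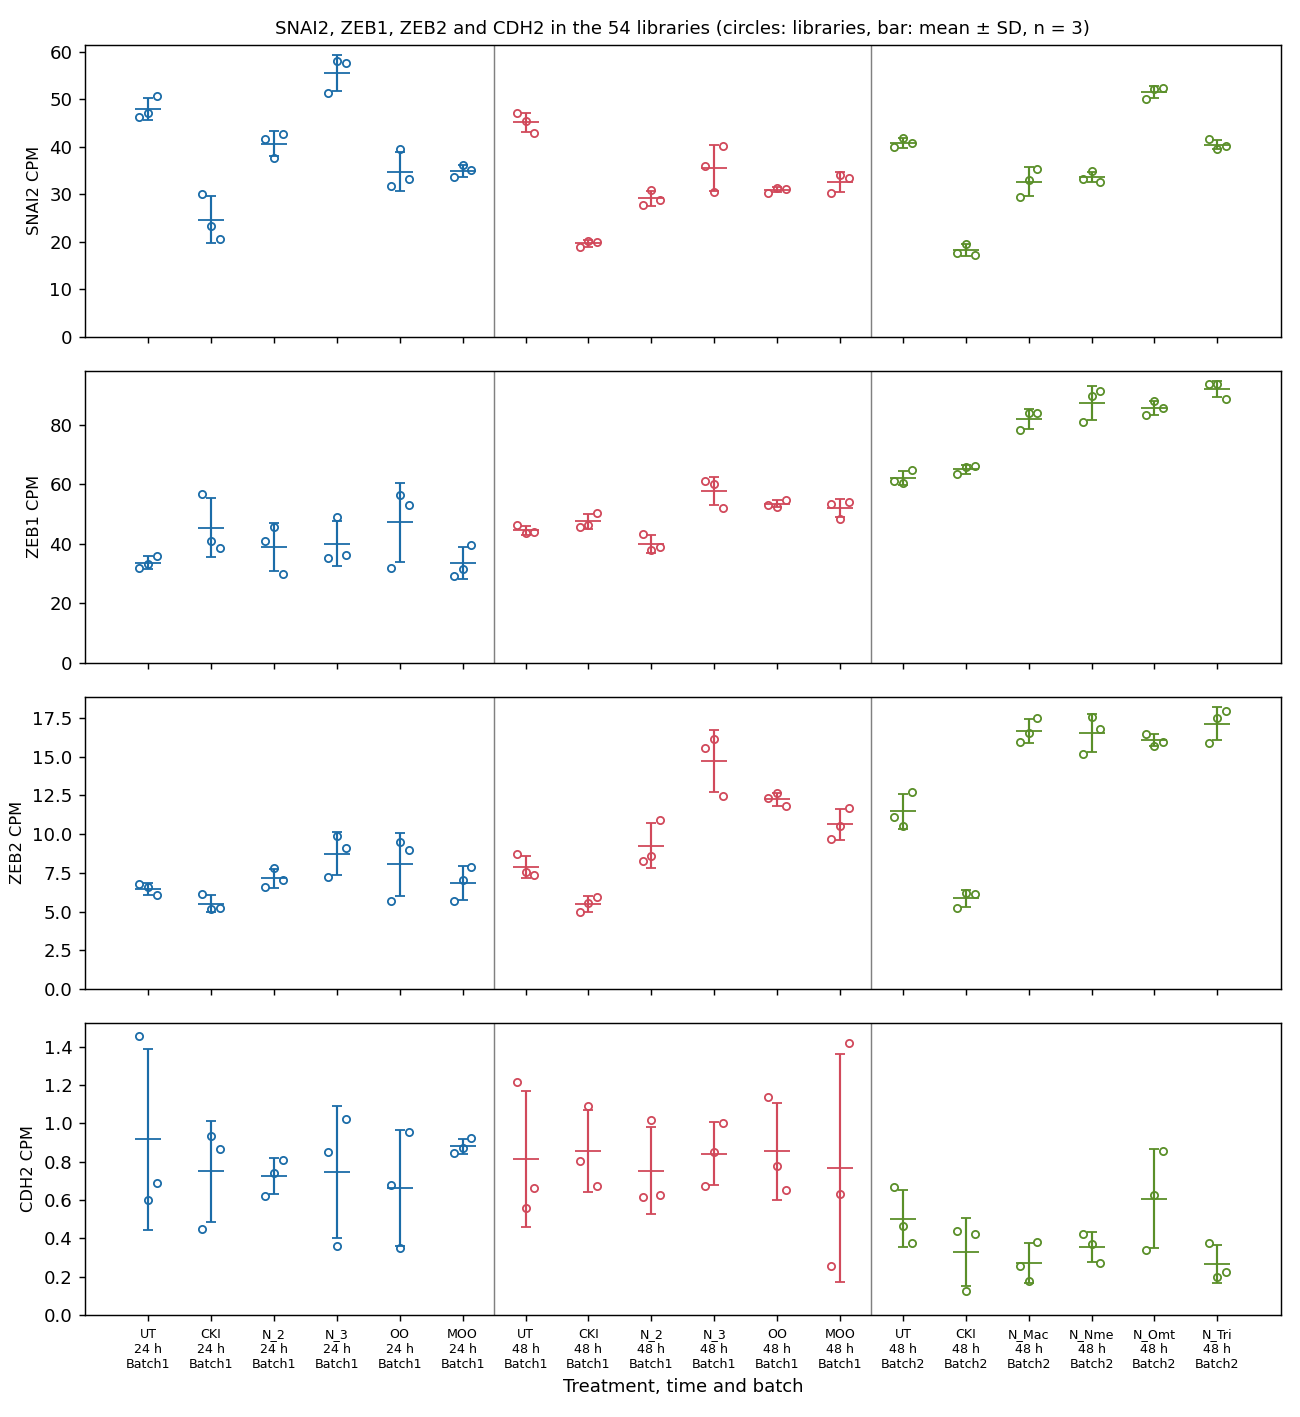
CPM of SNAI2, ZEB1, ZEB2 and CDH2 in each of the 54 libraries (circles) with mean ± SD of 3 (bars), on linear axes that start at 0. SNAI2 is lowest with CKI in each set, ZEB2 at 48 h is lowest with CKI, and the treated CDH2 groups overlap untreated cells of the same time and batch.

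The effect of CKI itself differed between the batches for 5 of the 10 genes at 48 h, by the interaction of treatment and batch in 12 libraries, where 13.8% of all genes did. The FN1 log2 fold change was -0.73 in Batch1 and -1.86 in Batch2, a difference of -1.13 (SE 0.07, edgeR adjusted p = 2.17e-09). SNAI1 rose by 0.85 and 2.27, a difference of 1.43 (SE 0.22, edgeR adjusted p = 0.0002). Differences for VIM (-0.35, edgeR adjusted p = 0.00117), CTNNB1 (0.27, edgeR adjusted p = 0.0164) and CDH11 (-0.37, edgeR adjusted p = 0.0443) were smaller. The CDH11 call was lost without any of 9 of the 12 libraries (all except UT Batch1 replicate 1, CKI Batch1 replicate 1 and UT Batch2 replicate 3), with values of -0.40 to -0.22, and that of CTNNB1 without CKI Batch1 replicate 2 (0.25, edgeR adjusted p = 0.0520). For the other 5 genes the difference was not DE, including CDH1 (0.77, 95% interval -0.29 to 1.83).

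Between 24 and 48 h the effect of N_2 changed most. In N_2, 7 of the 10 genes had an effect that differed with time, where 41% of all genes did. CDH1 recovered (difference of the log2 fold changes 0.89, edgeR adjusted p = 0.0319) and SNAI1 rose further (1.83, edgeR adjusted p = 0.00684, and 2.46 without N_2 24 h replicate 3). CDH11 (-1.48), CTNNB1 (-1.16), FN1 (-0.74), VIM (-0.61) and SNAI2 (-0.39) were lower against untreated cells at 48 h than at 24 h. With library sizes alone, a scaling that moved the median of all genes by 0.36, the count was 4, and VIM (-0.25), SNAI2 (-0.04) and FN1 (-0.38) were not called. The CDH1 call was lost without 7 of the 12 libraries, namely UT 24 h replicate 3, N_2 24 h replicate 2, UT 48 h replicates 1, 2 and 3, and N_2 48 h replicates 1 and 2, with values of 0.62 to 0.91 (edgeR adjusted p = 0.0537 to 0.0908). In OO, 2 genes differed (11.9% of all genes), SNAI1 (1.61, edgeR adjusted p = 0.0372) and CDH11 (-0.75, edgeR adjusted p = 0.0401). These 2 calls were lost without most of the single libraries, 9 of 12 for SNAI1 and 10 of 12 for CDH11, with values of 1.19 to 1.67 and -0.80 to -0.57, and both held without OO 24 h replicate 2 (2.16 and -0.95). In MOO only CDH11 differed (-0.56, edgeR adjusted p = 0.000582), where 21% of all genes did. Without MOO 24 h replicate 3 the count for MOO was 4, and without OO 24 h replicate 1 the count for OO was 5. The shares of all genes in these refits are not given here.

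For CKI, edgeR called none of the 10 genes between the times, where 1.56% of all genes were called. At an unadjusted p under 0.05 there were 3 (CDH1, SNAI1 and VIM), and DESeq2 called 1, VIM. Without CKI 24 h replicate 1 edgeR called 2, SNAI1 (1.22, edgeR adjusted p = 0.00125) and VIM (0.30, edgeR adjusted p = 0.0376), where 9.45% of all genes were called. For N_3 edgeR also called none (3.54% of all genes). At an unadjusted p under 0.05 there were 4 (FN1, SNAI1, SNAI2 and ZEB2), and DESeq2 called SNAI1 and SNAI2. Without N_3 24 h replicate 2 edgeR called 2, SNAI1 (1.68, edgeR adjusted p = 0.00223) and SNAI2 (-0.49, edgeR adjusted p = 0.0384), where 14.5% of all genes were called.

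The mixtures were then set against CKI at the same time and batch. At 48 h in Batch1, 9 of the 10 genes differed between N_2 and CKI (77.8% of all genes), 8 between N_3 and CKI (60.5%), 8 between OO and CKI (64.6%) and 7 between MOO and CKI (57.9%). CDH1 was higher than with CKI in all 4, by 2.66 (SE 0.19) with N_2, 1.40 (SE 0.22) with N_3, 1.06 (SE 0.25) with OO and 0.85 (SE 0.26) with MOO on the log2 scale. SNAI1 was higher with N_2 (2.52, SE 0.10, edgeR adjusted p = 9.3e-16) and N_3 (1.96, SE 0.21, edgeR adjusted p = 3.3e-05), and lower with OO (-1.93, SE 0.18, edgeR adjusted p = 1.24e-08) and MOO (-2.05, SE 0.17, edgeR adjusted p = 6.51e-09). Thus the mixtures without oxymatrine and oxysophocarpine (N_2 and N_3) and those that contained both (OO and MOO) stood on opposite sides of CKI in SNAI1. In CDH1 they stood on the same side. The effects of oxymatrine and oxysophocarpine cannot be told apart in these mixtures. The CDH1 call of MOO was lost without MOO replicate 3 (0.63, edgeR adjusted p = 0.0804). VIM, SNAI2 and ZEB2 were higher and CDH11 lower than with CKI in all 4. FN1 was lower with N_2 (-0.96) and N_3 (-0.76) and not DE with OO (0.06) or MOO (0.11). CTNNB1 was lower with N_2 (-0.63), OO (-0.25) and MOO (-0.17), while N_3 overlapped CKI (-0.20, edgeR adjusted p = 0.233) unless N_3 replicate 2 was left out (-0.41, edgeR adjusted p = 0.000149). ZEB1 was lower than with CKI in N_2 (-0.25, SE 0.07, edgeR adjusted p = 0.00255), and leaving out any 1 of the 6 libraries kept that call. The higher ZEB1 calls of N_3 (0.29) and OO (0.17) were lost without CKI replicate 1 or 2 or N_3 replicate 1, and without CKI replicate 2 or OO replicate 3, respectively.

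In Batch2, all 8 genes that could be tested differed between N_Mac and CKI (72.8% of all genes), between N_Nme and CKI (72.7%) and between N_Tri and CKI (77.1%). CDH1 and CDH2 had too few reads in these 3 comparisons. Between N_Omt and CKI 9 of 10 differed (80.5% of all genes). SNAI1 was lower than with CKI in N_Mac (-1.19, SE 0.16), N_Nme (-2.28, SE 0.22) and N_Tri (-1.79, SE 0.18) and higher in N_Omt (0.69, SE 0.12, edgeR adjusted p = 8.22e-07). In N_Omt, CDH1 was higher than with CKI by 2.78 (SE 0.39, edgeR adjusted p = 7.73e-09), SNAI2 by 1.51 (SE 0.06) and VIM by 1.03 (SE 0.04) on the log2 scale. The CDH1 value was 3.61 without CKI replicate 3 and 2.37 without CKI replicate 1. VIM, ZEB1, ZEB2 and SNAI2 were higher, and CDH11 and CTNNB1 lower, than with CKI in all 4 mixtures. FN1 was higher by 0.73, 0.80 and 0.52 in N_Mac, N_Nme and N_Tri and by 0.09 in N_Omt, where the call was lost without CKI replicate 2 or 3 (0.08 and 0.07, edgeR adjusted p = 0.0830 and 0.125).

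At 24 h fewer genes differed from CKI. There were 5 with N_2 (54% of all genes), 4 with N_3 (23.1%), 3 with MOO (16%) and 1 with OO (2.32%). CDH1 was higher than with CKI with N_2 (2.77, edgeR adjusted p = 0.00341, and 3.38 without CKI replicate 2), N_3 (2.77, 0.0215) and MOO (1.81, 0.0428), and these values were 2.29, 2.63 and 1.34 without the libraries that stood apart, each still called. The last 2 calls were each lost without some other libraries, that of N_3 without CKI replicate 2 or 3 (3.38 and 2.83) or N_3 replicate 1 or 3 (2.60 and 2.55), and that of MOO without CKI replicate 2 or 3 (2.44 and 1.88) or MOO replicate 1, 2 or 3 (1.90, 1.86 and 1.68). VIM was higher with N_2 (1.12), N_3 (1.16) and MOO (0.82), and SNAI2 with N_2 (0.72) and N_3 (1.19). VIM with OO (0.74, edgeR adjusted p = 0.0610) and SNAI2 with MOO (0.50, edgeR adjusted p = 0.0600) missed the threshold narrowly. DESeq2 called both (adjusted p = 0.00153 and 0.0207). Without the libraries that stood apart, VIM with OO was not called (0.62, edgeR adjusted p = 0.128). SNAI1 was lower with OO (-2.76, edgeR adjusted p = 0.0412) and MOO (-2.14, 0.0181). The OO call was lost without any 1 of its 6 libraries (-3.31 to -2.31, edgeR adjusted p = 0.0553 to 0.162), and was -2.87 (edgeR adjusted p = 0.0291) without CKI replicate 1 and OO replicate 2 together. That of MOO was lost without MOO replicate 1, 2 or 3 (-2.39, -2.29 and -1.80). With N_2, the SNAI1 call (1.44) was lost without CKI replicate 2 or 3 or N_2 replicate 1 or 3 (0.81 to 1.56) and that of CDH11 (1.10, and 0.72 without CKI replicate 1) without N_2 replicate 1 or 2 (1.09 and 1.03). With N_3 the ZEB2 call (0.68) was lost without CKI replicate 2 or 3 or N_3 replicate 1 or 3 (0.63 to 0.81). Without the libraries that stood apart the count with N_3 was 7, as CDH11 (-0.49), SNAI1 (1.54) and CTNNB1 (-0.47) were called as well. In that refit 62.5% of all genes were DE, near the share of the set. With MOO the count became 4 (28.7% of all genes), as SNAI2 (0.67, edgeR adjusted p = 0.000636) was called too. The counts with N_2 and OO stayed at 5 (54.4% of all genes) and 1 (1.98%).

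Macrozamin was the 1 compound by which MOO differed from OO and N_2 from N_3. Adding it to OO left all 10 genes uncalled at 24 h, where edgeR called 0% of all genes and DESeq2 also 0. No gene of the set had an unadjusted p under 0.05, which 569 of all genes had. Without OO 24 h replicate 1, ZEB1 (-0.71) and FN1 (-0.61) were called, each with an edgeR adjusted p of 0.0274. At 48 h 1 gene was called, where 9.72% of all genes were: CDH11, higher with MOO by 0.38 (SE 0.05, edgeR adjusted p = 4.51e-05). Taking macrozamin out of N_2 changed 3 genes at 24 h (36.7% of all genes), CDH11 (-1.44), CTNNB1 (-0.89) and SNAI2 (0.47). The CTNNB1 and SNAI2 calls were lost without N_2 replicate 1 or 2 or N_3 replicate 1 or 3, with values of -0.86 to -0.66 and 0.41 to 0.51. At 48 h 6 differed (39.2% of all genes). N_3 had less CDH1 than N_2 (-1.27, SE 0.17, edgeR adjusted p = 0.000374) and less SNAI1 (-0.57, edgeR adjusted p = 0.0343), and more ZEB2 (0.67), ZEB1 (0.53), CTNNB1 (0.41) and VIM (0.32). The SNAI1, VIM and CTNNB1 calls were lost without N_2 replicate 1, 2 or 3, with values of -0.63 to -0.46, 0.30 to 0.36 and 0.40 to 0.43, and the first 2 of these also without N_3 replicate 3 (-0.61 and 0.28). Without N_3 replicate 2, SNAI1 was at -0.36 and CTNNB1 at 0.21, both still called.

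Other genes of the same processes moved in both directions with CKI, and their counts are to be read beside the 38.7%, 62.5% and 68.4% of all genes that were DE at 24 h, at 48 h in Batch1 and at 48 h in Batch2. Of 11 tested genes of other cadherins and junction partners, 1 was higher and 4 lower at 24 h, with a median log2 fold change of -0.05. At 48 h in Batch1, 2 of 11 were higher and 4 lower, with a median of -0.04, and in Batch2 at 48 h 4 of 12 were higher and 5 lower, with a median of -0.06. α-Catenin (CTNNA1) rose most at 24 h, from 527 ± 16.2 to 716 ± 15.6 CPM (log2 fold change 0.44, edgeR adjusted p = 0.0032), and R-cadherin (CDH4) fell most in each of the 3 comparisons, in Batch2 from 72.6 ± 3.31 to 22.9 ± 1.64 CPM (-1.65, edgeR adjusted p = 2.07e-10). Plakoglobin (JUP), a relative of β-catenin in desmosomes, rose most at 48 h, by 0.30 in Batch1 and 0.34 in Batch2. Of 7 other EMT transcription factors tested, 1 was higher at each time, and 2, 4 and 3 were lower at 24 h, at 48 h in Batch1 and at 48 h in Batch2. SOX4 had the largest fall in all 3 (-1.90, -1.16 and -1.48).

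Epithelial markers went both ways with CKI. Of 19 tested, 3 were higher and 6 lower at 24 h, 7 and 8 at 48 h in Batch1, and 5 and 10 in Batch2. CLDN4, a claudin of tight junctions, rose most in each (0.87, 0.71 and 0.64). The keratin KRT7 fell most at 24 h (-1.89) and in Batch2 (-1.81), and the desmosomal gene PKP3 in Batch1 at 48 h (-1.71). Among mesenchymal markers, 2 of 13 were higher and 5 lower at 24 h, 3 and 7 of 15 at 48 h in Batch1, and 4 and 7 of 15 in Batch2. ITGA5, the fibronectin receptor subunit, rose most in each, in Batch1 at 48 h from 142 ± 1.83 to 312 ± 5.74 CPM (log2 fold change 1.15, edgeR adjusted p = 2.11e-12). The collagen gene COL1A2 fell most at 24 h (-1.91) and at 48 h in Batch1 (-3.11), and TNC in Batch2 (-2.29). COL1A2 is also a fibroblast marker. In Batch1 at 48 h the fibroblast list summed to 73.4 to 76.1 CPM in untreated cells and 46.0 to 49.9 CPM with CKI. In Batch2 the sums were 33.8 to 43.8 CPM in untreated cells and 39.9 to 41.1 CPM with CKI. Luminal markers, which include the keratins KRT8 and KRT18, went from 3050 to 3408 CPM to 1411 to 1577 CPM in Batch1 at 48 h. The part of either marker list in the results was not tested.

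Of 26 parts of the Wnt pathway, 7 were higher and 1 lower with CKI at 24 h, 10 and 7 at 48 h in Batch1, and 14 and 5 in Batch2, with medians of 0.06, 0.04 and 0.13, beside 38.7%, 62.5% and 68.4% of all genes. The co-receptor gene LRP5 rose most in all 3 (0.65, 0.53 and 0.97), and the receptor gene FZD2 fell most at 48 h (-0.60 and -0.46). Of the β-catenin target genes, 3 of 8 were lower and none higher at 24 h, 4 of 8 lower and 1 higher at 48 h in Batch1, and 5 of 9 lower and 3 higher in Batch2. SP5 fell most at 24 h (-0.81) and the Wnt antagonist DKK1 at 48 h (-1.04 and -1.95). Epithelial regulators, 6 of which were tested, had 1 higher and 2 lower at 24 h, 2 and 2 at 48 h in Batch1, and 3 and 2 in Batch2. KLF5 rose most at 48 h (0.18 and 0.40), and ELF3 (-0.32) and KLF4 (-0.63) fell most in Batch1 and Batch2.

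Across the 15 treated groups, the genes whose log2 ratios to untreated cells were most like those of CDH1, by Pearson's r among 9783 genes whose mean over all libraries was 10 CPM or more, were VDAC2 (0.910), UCA1 (0.909) and UIMC1 (0.907). For FN1 they were TMEM45A (0.880), LIPA (0.850) and MOCS1 (0.848), and for CTNNB1 NDUFS5 (0.915), CHD4 (0.910) and OAZ2 (0.895). The groups of a time and batch share their untreated libraries, so that these 15 points are not independent. The named genes were picked as the highest of 9783, and what r such a pick reaches by chance was not tested. CDH1 itself, at a median of 1.35 CPM, was below the 10 CPM asked of the other genes, so its ratios rest on few reads.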

How the data were processed

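Gene counts of 54 MDA-MB-231 libraries (17673537 to 26138924 counted reads, 27978 genes) were used as deposited. Per the labels and the submitters' processing notes, the authors trimmed reads with Trim Galore 0.3.7, aligned them to hg19 with STAR 2.5.3a and counted reads per gene with featureCounts of Subread 1.5.2. The deposited values are raw counts. The strand setting of the counting is not given in the sources used here.

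CPM were computed from library sizes scaled by TMM factors (0.775 to 1.07). DE genes were called with the quasi-likelihood test of edgeR 4.0.16 in R 4.3.3, with filterByExpr, pairwise fits of 3 against 3 libraries, and an adjusted p under 0.05 by Benjamini-Hochberg over all genes tested. Interactions were fitted on 12 libraries. The 10 genes and the other gene lists were chosen with earlier results of these data known. The rule was to name all 10 genes in every comparison, but genes that were not called are given in part only as counts; of the other lists, the largest rise and fall with CKI among DE genes that averaged 10 CPM or more; and for 3 genes the 3 most similar genes. The tests were tried on simulated data. Alternatives were RLE size factors, library sizes alone, DESeq2 1.42.0, no filter, a replicate block, a fit of all 18 libraries, a fold threshold, and leaving out libraries. The labels state biological replicates but not which cultures they came from. The p-values therefore measure the spread between these samples, which may be technical. With 3 against 3, an exact permutation test of a single value cannot go below 0.1 and was not used.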

Additional observations from a re-analysis of the deposited data

Results flagged for a closer look

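The effect of CKI at 48 h differed between the batches, by a test of treatment and batch together, for FN1 (Batch2 minus Batch1, -1.13 on the log2 scale), SNAI1 (1.43), CDH11 (-0.37), VIM (-0.35) and CTNNB1 (0.27).

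Between 24 and 48 h in Batch1, the effect of N_2 differed for SNAI1 (48 h minus 24 h, 1.83 on the log2 scale), CDH11 (-1.48), CTNNB1 (-1.16), CDH1 (0.89), FN1 (-0.74), VIM (-0.61) and SNAI2 (-0.39). The effect of OO differed for SNAI1 (1.61) and CDH11 (-0.75), and that of MOO for CDH11 (-0.56). Batch1 at 24 h holds the libraries that stood apart, and their part in these differences was not tested except by leaving them out.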

How the results depend on the processing

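Leaving out 1 library moved the number of DE genes of the set from 28 to 19 to 31 at 24 h, from 41 to 40 to 44 and 39 to 42 at 48 h in Batch1 and Batch2, from 8 to 7 to 8 and 4 to 3 to 4 in untreated cells (batch and time), from 5 to 3 to 5 for CKI by batch (3 without CKI Batch1 replicate 2), from 10 to 7 to 13 by time, from 78 to 73 to 81 for the mixtures against CKI and from 10 to 7 to 12 for macrozamin. A log2 fold change of at least 1 left 12, 17, 16, 3, 0, 2, 4, 33 and 2 of them in that order, by construction fewer. With a replicate block the counts were 28, 42, 40, 8, 3, 4, 12, 73 and 10. In 0 of 33 comparisons did the deviations of samples of the same number correlate above 0.1 in every pair (r from -0.474 to 0.271). With 3 libraries per group this rule cannot exclude that samples of the same number shared a culture or preparation. Of 2798 refits of single DE values, 2610 kept the call, 188 lost it and none changed sign. These refits share most of their libraries with the main fit. Of 2186 refits of values that were not called, 176 changed sign and 95 became called. Library sizes alone moved the median of all genes by over 0.1 in 6 comparisons, N_2 with untreated cells (-0.30) and CKI (-0.34) at 24 h, N_2 by time (0.36), N_3 with CKI at 48 h (-0.15), and N_3 with N_2 at 24 h (0.28) and 48 h (-0.12). In the fit of all 18 libraries the count at 24 h was 20. The shares of all genes are not given beside the counts of these refits. The counts thus do not show how the set stood beside all genes. Those shares move as well: with N_3 at 24 h, 45.9% of all genes were DE, and 68.3% without N_3 replicate 2. Depth limits CDH1 in Batch2 and CDH2 throughout.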
